A study of Bos taurus with 28 samples.

Results

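Mammary glands of 3 cows stood apart by 1 transcript of the bovine class I histocompatibility family, BOLA-N. They were chosen by that transcript alone: an array counted as BOLA-N-high where the 1 probe set annotated to BOLA-N alone was above 2 on the deposited log2 scale, and as the rest where it was at or below 2. The rule gave 3 BOLA-N-high arrays against 23 others, 26 of the 28 arrays in all, and left out 2 arrays by their titles. The question was whether other class I and immune genes are higher in the same glands, or this gene alone.

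The study took surgical biopsies of the mammary gland from Holstein-Friesian dairy cows in mid-lactation and measured the RNA of every cow on a separate array of the Affymetrix Bovine Genome type, on which a set of short probes reads each transcript. Cows were grouped by their DGAT1 genotype at the lysine to alanine site: AA (alanine on both alleles), KA and KK (lysine on both alleles). DGAT1 makes the final step of triglyceride synthesis, and the study asked which genes follow its genotype. Among the 26 arrays were 9 AA, 13 KA and 4 KK cows, all on the control diet. Cows are named here by genotype and a number given in deposition order, which pairs nothing. A biopsy mixes epithelium, stroma and blood cells, so fewer cells of a type and less RNA per cell cannot be told apart in any value below.

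Class I molecules carry peptides from inside the cell to its surface, where CD8 T cells and natural killer cells read them. Each is a heavy chain, such as those of the BOLA genes, joined to beta-2 microglobulin and loaded with peptides that the immunoproteasome cuts and the TAP transporter brings into the endoplasmic reticulum. Cattle carry several classical and non-classical heavy chain genes that vary between animals in sequence and in which genes a haplotype holds, and interferons raise the whole pathway. Probe sets for such genes can bind RNA of several of them or miss an allele, and this was not tested, since no probe sequence was used here.

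The deposited values are differences from an unstated baseline of each probe set, so they compare arrays within a probe set and give no level. On this scale BOLA-N was 4.88 in KK 4, 3.07 in AA 6 and 3.06 in AA 8. In the rest it ran from -1.74 in KA 2 through a median of -0.28 to 1.87 in AA 7. The values just outside and just inside the threshold, AA 7 and AA 8, lay 1.19 apart. The group means differed by 4.02, which the rule itself fixes and which carries no test. Within the rest BOLA-N was itself spread, with 7 arrays below -1 and 2 above 1.

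By genotype, the mean of BOLA-N was 0.68 ± 1.74 (SD, n = 9) for AA cows. For KA cows it was -0.51 ± 0.97 (SD, n = 13), and for KK cows 0.91 ± 2.83 (SD, n = 4). The genotypes overlapped widely, and none of the 13 KA cows passed the threshold, the highest being at 1.45. All 3 BOLA-N-high arrays carried title numbers from 29 to 42, where 10 arrays of the rest also lie, while the numbers 43 to 56 held 13 arrays of the rest and 0 high ones. Values within the lower numbers and with genotype in the model are therefore given where they bear on a result. The left-out arrays were also above the threshold, AA 2 at 4.73 and AA 9 at 2.37. These 2 arrays differed from the others in milk genes as well: the milk fat globule gene BTN1A1 was at -3.59 and -5.02 in them, and no lower than -0.33 in any of the 26.

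**Figure D1:**
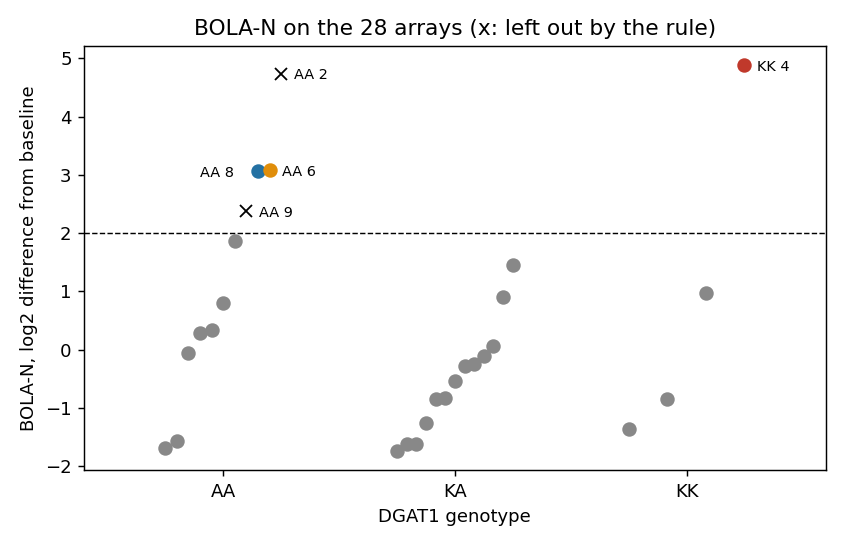
BOLA-N (log2 difference from the baseline of the probe set) on each of the 28 arrays by DGAT1 genotype; each point is 1 cow, coloured points are the BOLA-N-high arrays, crosses are arrays left out and the dashed line is the threshold of 2. KK 4, AA 6 and AA 8 lie above 3, and the highest array of the rest is at 1.87.

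As arrays, KK 4 and AA 8 lay within the rest in the measures taken, and AA 6 lay outside it in 2 of them. The SD of their values over all probe sets was 0.24 to 0.27, inside the 0.21 to 0.35 of the rest, and they held 94 to 242 probe sets more than 2-fold from baseline, against 62 to 449. Over all probe sets their values correlated with r of 0.39 (KK 4 and AA 6), 0.20 (KK 4 and AA 8) and 0.36 (AA 6 and AA 8), a description over probe sets that share an array. For actin, whose control probe sets at both ends of the transcript bear on RNA quality, the 3′ end exceeded the 5′ end by -0.07 in AA 8, 0.27 in KK 4 and 0.46 in AA 6, against -0.28 to 0.41 in the rest. For GAPDH the same quantity was -0.26 to -0.10 in the high arrays and -0.59 to 0.97 in the rest. The median over all probe sets was -0.030 in AA 6, below the -0.018 to 0.017 of the rest. The part of these measures in the values of AA 6 was not tested.

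Beside BOLA-N, limma called 1 of 24015 probe sets at a Benjamini-Hochberg adjusted p under 0.05: 0.00416% were called higher and 0% lower. The platform annotation used here gives no gene for it. This unnamed probe set was 4.18 in KK 4, 3.75 in AA 6 and 3.15 in AA 8. In the rest it ran from -0.66 through a median of 0.05 to 2.54 in AA 3, and only AA 5 and KA 5 also exceeded 1. All 3 high arrays lay above all of the rest, as they did for 0.0541% of probe sets. The difference was 3.39 (SE 0.42, n = 3 and 23, limma adjusted p = 1.74e-04).

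The unnamed probe set did not follow BOLA-N among the other cows. Over the 23 arrays of the rest its correlation with BOLA-N was r = -0.11, and AA 3, the rest array where it was highest, had the second lowest BOLA-N of the rest, -1.69. Of the left-out arrays, AA 2 was at 3.11, just below AA 8, while AA 9 was at 0.20. It remained called with genotype in the model (difference 3.32, adjusted p = 0.0019) and with the array number range as a block (3.196, adjusted p = 0.0022). Within the arrays numbered 29 to 42 the difference was 3.196 with an adjusted p of 0.0571, and among AA arrays alone it was 2.82 with an adjusted p of 0.982.

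**Figure D2:**
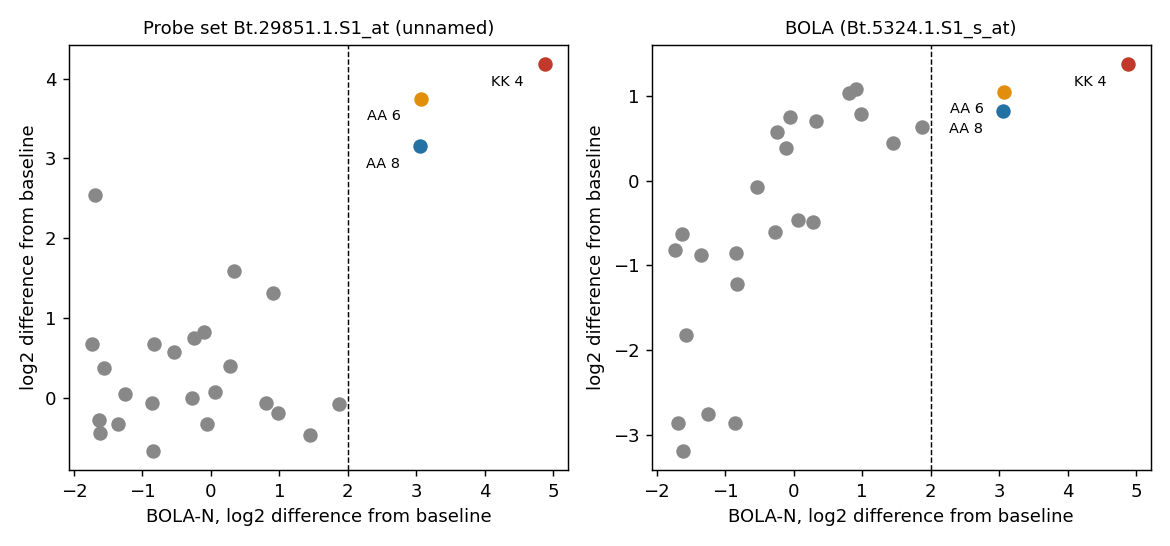
The called, unnamed probe set (left) and the probe set annotated to BOLA alone (right) against BOLA-N, all as log2 differences from baseline; each point is 1 of the 26 arrays, coloured points are BOLA-N-high and the dashed line is the threshold. On the left only the high arrays exceed 3; on the right the values climb with BOLA-N through the rest (r = 0.76 over 23 arrays).

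The class I heavy chain list held 27 probe sets beside BOLA-N, and 0 of 27 passed the adjusted threshold in either direction, against 0.00416% of all probe sets called higher. At an unadjusted p under 0.05, a rule taken up after the adjusted rule gave so few calls, 4 were higher and 1 lower. The same rule called 3.87% of all probe sets higher and 4.25% lower, 930 and 1020 of them. The median difference of the list was 0.03 and that of all probe sets -0.03. In 16 of 27 the difference was within 0.2 of 0, and in 3 it was above 1. None of them placed all high arrays above or below all of the rest.

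Of these 27 probe sets, 20 are annotated to more than 1 symbol and 15 to BOLA-N among others, so they are named by that annotation and may read the same RNA as the probe set that chose the arrays. Their values are therefore no independent support. The symbol BOLA in the annotation stands for class I heavy chain genes without telling which.

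The 1 probe set annotated to BOLA alone had the highest correlation with BOLA-N within the 23 arrays of the rest. It was 1.37 in KK 4, 1.05 in AA 6 and 0.82 in AA 8. In the rest it ran from -3.18 in KA 6 through a median of -0.48 to 1.08 in KA 5, so the groups overlapped at their tops. The 4 lowest arrays, KA 6, AA 3, KK 1 and KA 1, were all below -2, and BOLA-N was between -1.69 and -0.86 in them. The left-out arrays were high, at 1.58 in AA 2 and 2.27 in AA 9. The difference was 1.65 (SE 0.73, unadjusted p = 0.031, limma adjusted p = 0.575). Its correlation with BOLA-N was r = 0.73 over 26 arrays, 0.76 over the 23 of the rest, and rho = 0.87 over 26. With the array number range as a block the difference was 2.11 (unadjusted p = 0.0093, adjusted p = 0.65).

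Of 3 probe sets annotated to BOLA-N and JSP.1 together, 2 were higher at an unadjusted p under 0.05, with another order of arrays. The one with the larger difference stood at 0.43 in KK 4, 1.81 in AA 6 and 2.14 in AA 8, and in the rest it ran from -3.38 through -0.05 to 1.84. Its difference was 1.78 (SE 0.85, unadjusted p = 0.045, adjusted p = 0.602). The next stood at 1.14 in KK 4, 1.62 in AA 6 and 1.89 in AA 8, and in the rest it ran from -0.74 through 0.14 to 2.13. Its difference was 1.29 (SE 0.39, unadjusted p = 0.0024, adjusted p = 0.373). In both, AA 8 was the highest of the high arrays and KK 4 the lowest, the reverse of BOLA-N itself. AA 2, with the second highest BOLA-N of all 28 arrays, was at -0.93 and 0.02 in them. The last of these probe sets differed by -0.10 (adjusted p = 0.856).

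The probe set annotated to BOLA and BOLA-NC1 was 0.91 in KK 4, 0.25 in AA 6 and 0.24 in AA 8. The rest ran from -0.60 through -0.14 to 0.53, where KA 10 alone reached the lowest high array. The difference was 0.60 (SE 0.18, unadjusted p = 0.0020, adjusted p = 0.339). In the left-out arrays this probe set was 1.39 and 1.92, above every one of the 26.

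Other class I probe sets split the high arrays. The one annotated to BoLA alone was 0.52 in KK 4, -1.87 in AA 6 and 1.39 in AA 8 (rest -2.39 to 1.42), and its mean difference of -0.14 became 0.80 without AA 6. Of 4 annotated to BoLA and BOLA together, 1 was also lowest in AA 6, at 1.46 in KK 4, -0.99 in AA 6 and 1.23 in AA 8, and AA 6 lay below all 23 arrays of the rest. Its difference was 0.08 (SE 0.40, adjusted p = 0.969). Another of them was the 1 member of the list that was lower at an unadjusted p under 0.05, by -0.17 (unadjusted p = 0.029, adjusted p = 0.575).

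The largest annotation group, 12 probe sets listed for BOLA-N, BOLA and BOLA-NC1 at once, had differences from -0.55 to 0.57, of which 5 were positive. None of the 12 had an unadjusted p under 0.05, and their adjusted p-values lay between 0.616 and 0.996. The highest difference, 0.57, was 0.38 in KK 4, 0.65 in AA 6 and 0.61 in AA 8, while the rest ran from -1.17 to 0.96. In the probe set with the lowest, -0.55 (SE 0.72), KK 2 alone was at 6.04 and the next highest array of the rest at 1.40.

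The class I-like genes did not differ beyond the spread between arrays. MR1, which presents microbial vitamin B metabolites to T cells, differed by 0.13 and 0.03 in its 2 probe sets. FCGRT, the heavy chain of the neonatal Fc receptor that moves antibody across epithelia, differed by 0.10. MIC1, of the stress ligand family, differed by 0.14 and -0.09. Their adjusted p-values lay between 0.741 and 0.957.

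**Figure D3:**
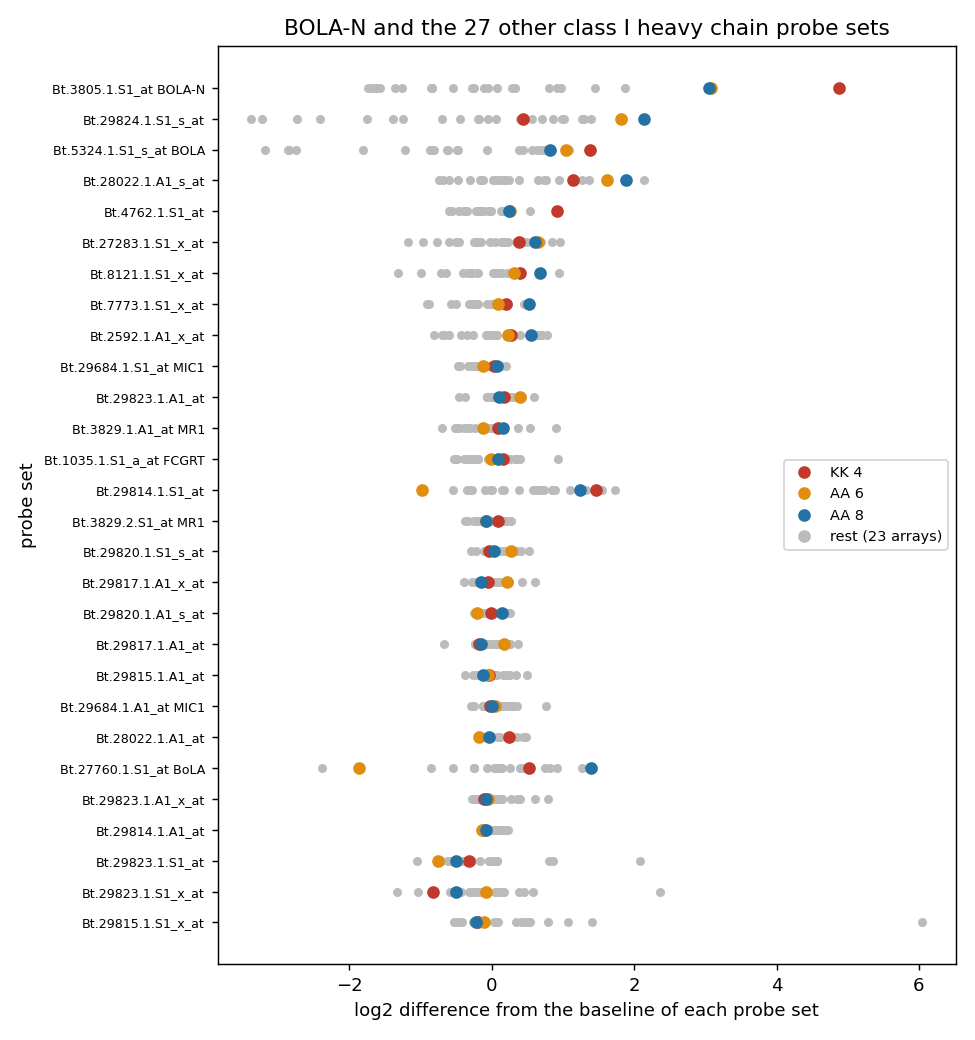
BOLA-N (top row) and the 27 other class I heavy chain probe sets, ordered by the difference between the groups; each row shows the log2 difference from baseline on the 26 arrays, grey for the rest and coloured for KK 4, AA 6 and AA 8. In the top row the rule itself sets the coloured points above the grey ones. In none of the other 27 rows do all coloured points clear the grey ones.

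Of the 24 probe sets for the light chain, peptide supply and loading, 0 were called and 10 were higher and 1 lower at an unadjusted p under 0.05, which is 41.7% higher beside 3.87% of all probe sets. Their median difference was 0.17. B2M, the light chain that every class I molecule shares, was 0.44 in KK 4, 0.26 in AA 6 and 0.26 in AA 8 in the probe set of smallest p. The rest ran from -0.54 through -0.03 to 0.35, and 2 of them reached the lowest high array. The difference was 0.42 (SE 0.13, unadjusted p = 0.0038, adjusted p = 0.393), and a further probe set of B2M differed by 0.32 (adjusted p = 0.554).

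Among the immunoproteasome subunits, which interferon puts in place of the constitutive ones, PSMB9 was 1.19 in KK 4, 0.48 in AA 6 and 0.25 in AA 8, while the rest ran from -0.72 to 0.56. It differed by 0.77 (SE 0.22, adjusted p = 0.296). PSMB8 differed by 0.75 (SE 0.26, adjusted p = 0.471) and PSMB10 by 0.72 (SE 0.25, adjusted p = 0.458). TAP1, a chain of the peptide transporter, was 1.14, 0.54 and 0.28 in KK 4, AA 6 and AA 8, against -0.85 to 0.70 in the rest, and differed by 0.70 (SE 0.24, adjusted p = 0.458). In PSMB9 and TAP1, as in B2M, KK 4 was the highest of the 26 arrays while AA 6 and AA 8 lay among the rest.

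These shares depended on KK 4. Without it, 1 of 24 presentation probe sets was higher at an unadjusted p under 0.05 (4.17%, beside 2.6% of all probe sets), without AA 6 it was 9 (37.5%, beside 2.99%), and without AA 8 it was 6 (25%, beside 2.85%). With AA arrays alone it was 0 of 24, beside 1.86%. Among the arrays numbered 29 to 42 it was 9 of 24, beside 2.88%. In B2M the difference was 0.36 without KK 4 (unadjusted p = 0.034), in TAP1 0.46 (0.117) and in PSMB9 0.50 (0.054). Set against the mean of the rest, the median presentation probe set was 0.39 higher in KK 4, 0.04 in AA 6 and 0.26 in AA 8. Above that mean were 19 of 24 in KK 4, 12 in AA 6 and 18 in AA 8, beside 10923, 9542 and 10615 of all 24015 probe sets. More than 2-fold above it were 4 in KK 4 and 0 in AA 6 and AA 8, beside 223, 75 and 93 of all 24015.

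The other immune lists covered class II, T and natural killer cells, B and plasma cells, myeloid cells, interferon targets and inflammatory genes, 238 probe sets in all after overlaps, 3 of which, PSMB8, PSMB9 and TAP1, are also in the presentation list. Again 0 were called at the adjusted threshold. At an unadjusted p under 0.05, 72 were higher, or 30.3% beside 3.87% of all probe sets, and 3 were lower. Their median difference was 0.25, and 174 of 238 differences were positive, where 40.1% of all probe sets were. The mean over the lists was 0.64 in KK 4, 0.22 in AA 6 and 0.11 in AA 8. In the rest it ran from -0.24 through -0.01 to 0.44 in KA 5, so AA 6 and AA 8 lay within the rest, 6 arrays of which reached or passed AA 8.

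Without KK 4, 11 of 238 were higher (4.62%, beside 2.6%), against 62 (26.1%, beside 2.99%) without AA 6 and 81 (34%, beside 2.85%) without AA 8. In the AA arrays alone it was 20 (8.4%, beside 1.86%). Within the arrays numbered 29 to 42 it was 75 (31.5%, beside 2.88%), and with genotype in the model 66 (27.7%, beside 2.55%). Set against the mean of the rest, the median immune probe set was 0.45 higher in KK 4, 0.12 in AA 6 and 0.04 in AA 8. In KK 4, 65 of 238 were more than 2-fold above that mean, in AA 6 14 and in AA 8 8. Over all 24015 probe sets these counts were 223 in KK 4, 75 in AA 6 and 93 in AA 8, and the medians -0.02, -0.05 and -0.03.

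**Figure D4:**
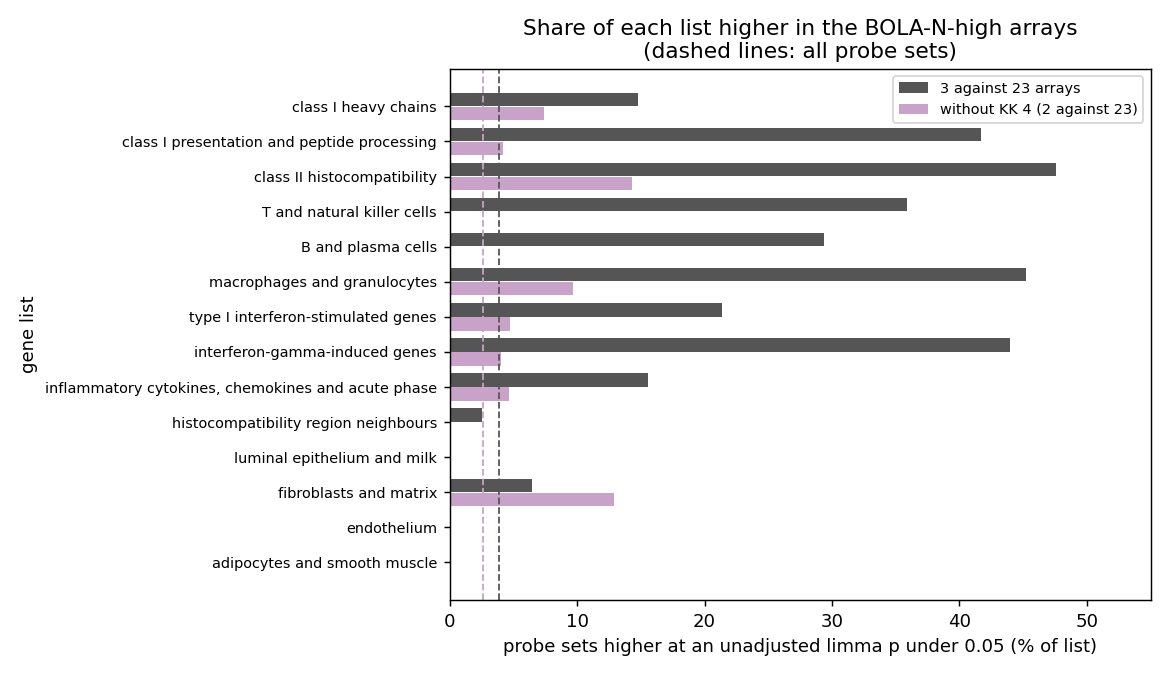
Share of the probe sets of each list (in %) that were higher in the BOLA-N-high arrays at an unadjusted limma p under 0.05, with all 3 high arrays (dark) and without KK 4 (light); dashed lines give the share over all probe sets, 3.87% and 2.6%. The presentation list goes from 41.7% to 4.17%.

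Class II genes, which present peptides from outside the cell to CD4 T cells, had the highest share: 10 of 21 were higher and 2 lower (47.6% and 9.52%, beside 3.87% and 4.25% of all probe sets), with a median difference of 0.52. BOLA-DRA was 0.96 in KK 4, 0.53 in AA 6 and 0.23 in AA 8 (rest -0.82 to 0.68), and differed by 0.64 (SE 0.21, adjusted p = 0.411). BOLA-DMB, part of the peptide exchange factor, differed by 0.63 (adjusted p = 0.393), BOLA-DOA by 0.48 (0.393) and CTSS, the protease that trims the invariant chain, by 0.66 (0.393). Of the 21 differences 17 were positive. The others were BOLA-DYA (-0.24, adjusted p = 0.505), BOLA-DYB (-0.24, 0.575), BOLA-DQA5 (-0.90, 0.817) and BOLA-DQB (-0.49, 0.858). Some DQ probe sets spread widely within the rest, where BOLA-DQA5 ran from -0.48 to 4.10. The BOLA-DQA2 probe set with the largest difference, 2.10, ran there from -4.44 to 0.99. Without KK 4, 3 of 21 were higher (14.3%, beside 2.6%). The counts of the lists that follow are read against the same shares of all probe sets.

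Of the myeloid markers 14 of 31 were higher, with a median of 0.48, and 3 without KK 4. CYBB, the catalytic subunit of the phagocyte oxidase, was 1.44 in KK 4, 0.84 in AA 6 and 0.58 in AA 8 in the probe set of smallest p, and only KK 3 of the rest, at 0.80, reached the lowest of them. It differed by 1.13 (SE 0.28, adjusted p = 0.263). PTPRC, the leukocyte common antigen CD45, differed by 0.99 (SE 0.27, adjusted p = 0.289) and C1QB, a complement chain made by macrophages, by 0.69 (adjusted p = 0.403). The list mean was 0.96 in KK 4, 0.24 in AA 6 and 0.06 in AA 8, and 0.92 in KA 5 of the rest, whose BOLA-N was 0.91.

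The list means of lymphocyte markers were highest in KK 4, as were 26 of 39 T and natural killer cell and 14 of 17 B and plasma cell probe sets among the high arrays. Of all 24015 probe sets, KK 4 was the highest of the high arrays in 9049. Of the T and natural killer cell markers 14 of 39 were higher, and 0 without KK 4. The granzyme gene gzmA, a cytotoxic granule protease, was 0.80 in KK 4, 0.13 in AA 6 and 0.03 in AA 8, with -0.24 to 0.17 in the rest. The T cell chemokine CCL5 was 1.70, 0.26 and 0.08 with -0.77 to 0.30 in the rest. Of the B and plasma cell markers 5 of 17 were higher, and 0 without KK 4. MS4A1, which encodes CD20, was 1.97, 0.55 and -0.20 with -0.34 to 0.39 in the rest in the probe set of smallest p. A further MS4A1 probe set was 1.03, 0.06 and -0.04 with -0.28 to 0.37 in the rest, and differed by 0.29 (limma adjusted p = 0.630). MZB1, a chaperone of antibody-secreting cells, was 2.73, 0.95 and 0.31 with -0.75 to 1.65. The part of these cells in the class I and class II values was not tested.

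Interferon targets also had their highest mean among the high arrays in KK 4. Of the interferon-gamma-induced genes 11 of 25 were higher, and 1 without KK 4. IDO1, which breaks down tryptophan, was 3.21 in KK 4, -0.08 in AA 6 and 0.20 in AA 8 in the probe set of smallest p, with -0.61 to 0.73 in the rest. A further IDO1 probe set was 1.30 in KK 4, -0.06 in AA 6 and -0.15 in AA 8, with -0.68 to 0.84 in the rest. CXCL10, a chemokine for activated T cells, was 3.16, 0.63 and 0.57 with -0.74 to 2.34, and GBP4, a guanylate-binding protein, was 1.92, 0.16 and 0.54 with -0.35 to 0.87. Of the type I interferon-stimulated genes 9 of 42 were higher, and 2 without KK 4. Here IFI44L was level across the high arrays, 0.59, 0.38 and 0.57, with -0.76 to 0.63 in the rest, and differed by 0.63 (SE 0.21, adjusted p = 0.450). The highest mean of this list was in the rest, 0.85 in KA 8, whose BOLA-N was -0.85.

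Among inflammatory genes 10 of 64 were higher and 1 lower, and 3 were higher without KK 4. The lymphoid chemokine CCL19 was 2.35 in KK 4 and 1.19 in AA 6 but -0.20 in AA 8, with -0.39 to 0.51 in the rest, and differed by 1.12 (SE 0.25, adjusted p = 0.253). Without AA 8 it was called, together with the lymphotoxin gene LTB and the MS4A1 probe set of smallest p, 3 of 238 beside 0.0291% of all probe sets. C4A, a complement component encoded in the histocompatibility region, was 0.91 in KK 4, 1.63 in AA 6 and 1.45 in AA 8, with -1.18 to 1.31 in the rest, of which KA 9 alone reached the lowest high array. It differed by 1.34 (SE 0.34, adjusted p = 0.263). LBP, an acute phase protein that binds bacterial lipopolysaccharide, differed by 1.24 (SE 0.42, adjusted p = 0.453).

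**Figure D5:**
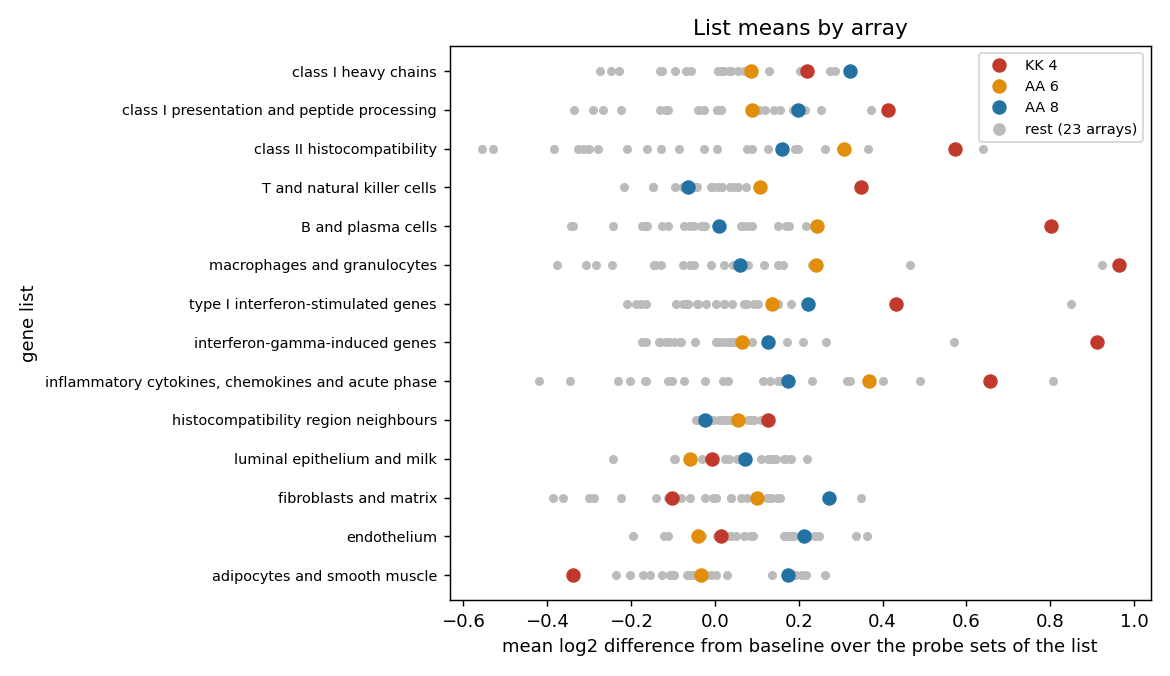
Mean log2 difference from baseline over the probe sets of each list on the 26 arrays; grey points are the rest and coloured points KK 4, AA 6 and AA 8. KK 4 lies at or near the top of the immune lists. AA 6 and AA 8 lie within the range of the rest or just above it, AA 6 for B and plasma cells and AA 8 for class I heavy chains.

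Between the groups, probe sets for genes near the class I genes on the chromosome were higher about as often as all probe sets. Of 40 probe sets for genes among the nearest 60 on either side of BOLA-NC1 in the RefSeq gene table, 0 were called, 1 was higher at an unadjusted p under 0.05 (2.5%, beside 3.87%) and 0 lower, with a median difference of -0.02. The 1 was UBD, an interferon-induced ubiquitin-like protein, at 1.54 in KK 4, 0.24 in AA 6 and 0.17 in AA 8, with -1.35 to 0.48 in the rest (difference 0.97, SE 0.34, adjusted p = 0.467). The mean of these 40 was 0.127 in KK 4, 0.056 in AA 6 and -0.023 in AA 8, with -0.045 to 0.121 in the rest. KK 4 exceeded every array of the rest at 3 of 40 (7.5%, beside 3.07% of all probe sets). AA 6 did so at 1 (2.5%, beside 1.55%) and AA 8 at 0 (beside 2.91%). BOLA-N itself is not placed in the RefSeq gene table.

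The other cell types of the biopsy were checked in the same way. Of 27 luminal epithelium and milk probe sets 0 were higher and 3 lower (11.1%, beside 4.25%). The lower ones were a probe set of CSN2, the beta-casein gene, at -0.24, BTN1A1 at -0.20 and PAEP, the beta-lactoglobulin gene, at -0.17. Other CSN2 probe sets differed by -0.11 and -0.09 (limma adjusted p = 0.640 and 0.847). The count depended on the arrays: without AA 6 0 of 27 were lower (beside 2.07%), and without AA 8 it was 6 (22.2%, beside 2.84%). In AA 6, 8 of 27 lay below all 23 arrays of the rest, or 29.6% beside 5.02% of all probe sets, and in KK 4 and AA 8 0 did. PAEP was -0.44 in AA 6 but 0.05 in KK 4 and 0.03 in AA 8, with -0.08 to 0.18 in the rest, and without AA 6 its difference was -0.0040. LALBA, the alpha-lactalbumin gene, was -0.33 in AA 6 (lowest of the rest -0.11) and the kappa-casein gene CSN3 -0.34 (-0.09). The mean over the whole list was -0.01 in KK 4, -0.06 in AA 6 and 0.07 in AA 8, all within the -0.24 to 0.22 of the rest. The part of the low milk genes of AA 6 in its other values was not tested.

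Between the groups, the counts for the remaining cell types were near the shares of all probe sets, but single high arrays stood apart. Of 31 fibroblast and matrix probe sets 2 were higher (6.45%, beside 3.87%) and 0 lower. Of 25 endothelial probe sets 0 were higher and 1 lower (4%, beside 4.25%), and of 18 for adipocytes and smooth muscle 0 were higher and 1 lower (5.56%, beside 4.25%). KK 4 had an adipocyte and smooth muscle mean of -0.34, below the lowest mean of the rest, -0.24. The means of AA 6 (-0.03) and AA 8 (0.17) fell inside the rest. For fibroblasts and matrix, AA 8 exceeded every array of the rest at 5 of 31 probe sets (16.1%, beside 2.91%). KK 4 and AA 6 did so at 1 each.

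The 10 probe sets with 1 symbol and the smallest p, given as values since none passed the threshold, included 7 that were lower. C24H18orf32 differed by -0.48 (adjusted p = 0.0997), ADSS1, of purine nucleotide synthesis, by -0.50 (0.134), PPID, a cyclophilin, by -0.41 (0.243) and ALG2, of protein N-glycosylation, by -0.57 (0.243). CRISPLD2 differed by -0.73, FAHD1 by -0.47 and FAM98A by -0.50. The 3 with higher means were CCL19, SLC25A6, a mitochondrial ADP/ATP carrier, at 0.66, and GBP1, an interferon-induced GTPase, at 1.07. For these last 6 the adjusted p was 0.253. In ADSS1 the high arrays, -0.67, -0.31 and -0.47, lay below all of the rest, whose lowest was -0.27, and in FAHD1 they did too, as for 0.104% of all probe sets.

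Over the 26 arrays the values most like BOLA-N were those of CP, ceruloplasmin, a copper-binding acute phase protein, with r = 0.81 (0.66 within the rest, rho = 0.71). It was 0.49 in KK 4, 0.37 in AA 6 and 0.36 in AA 8, with -0.34 to 0.48 in the rest. Of the 10 highest, 6 were unnamed, with r from 0.70 to 0.79, and the other named ones were BOLA (0.73), SLC25A6 (0.72) and gzmA (0.72). Among the 5 lowest were KDM5C, a histone demethylase (-0.67), and ACADL, of fatty acid oxidation (-0.66). These values rest on the high arrays in part: within the rest gzmA was at 0.43 and SLC25A6 at 0.53, and the 6 unnamed at 0.29 to 0.58, while BOLA was at 0.76.

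DGAT1, the gene of the genotype, differed by -0.11 (SE 0.18, adjusted p = 0.902) between the groups, with 0.62 in KK 4, -0.15 in AA 6 and 0.05 in AA 8, all within -0.28 to 0.84 of the rest.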

How the data were processed

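RNA of 28 mammary biopsies was measured, 1 array per cow. Per the labels' protocols and the submitters' processing notes, the authors deposited log2 values made with Bioconductor 2.7 in R 2.13. RMA and GCRMA are both named there, without a statement of which made the deposited table. A baseline per probe set had been subtracted, by a step no source describes, so level and signal over background are lost. The table held 24128 probe sets, of which 112 controls were left out and 24016 tested; the number of arrays limits the precision. Platform annotation gave 1 symbol to 13292, several to 86 and none to 10638; symbols were updated by gene identifier through RefSeq ARS-UCD2.0 (13263 of 13292).

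Arrays were split by the rule and fitted with limma 3.58.1 in R 4.3.3 (lmFit, eBayes, two-sided, Benjamini-Hochberg over all tested, threshold 0.05); BOLA-N stayed out of every count. The code was tested on simulated data. Members and lists were chosen with earlier results of these data known. BOLA1 was dropped from the class I list later, as it belongs to another family. Named were BOLA-N, DGAT1, every class I heavy chain probe set, the 10 single-symbol probe sets of smallest p, up to 6 of smallest p per other list, and the 10 highest and 5 lowest r with BOLA-N. Probe set identifiers are not printed in the text; probe sets are named by their annotation. Alternatives are given in the closing section.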

Additional observations from a re-analysis of the deposited data

Results flagged for a closer look

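BOLA-N and 91 further probe sets were searched for 1 value far from the other 3 among the 4 KK arrays. Many of them were named for a small p between the groups or a high r with BOLA-N, and KK 4 is a high array. A far value of KK 4 is thus partly built in. The rate of about 1 of 20 groups at which chance passes such a test does not apply. In KK 4 the flagged values were the called, unnamed probe set (4.18), a probe set annotated to BOLA-N and JSP.1 (0.24), PSMB9 (1.19), CTSS (0.78), BOLA-DMB (1.08), gzmA (0.80), CCL5 (1.70), MZB1 (2.73), POU2AF1 (1.79), BLNK (0.96), CP (0.49) and, as a low value, BTN1A1 (-0.28). In KK 2 it was a probe set annotated to BOLA-N, BOLA and BOLA-NC1 (6.04). BOLA-N was also above the threshold in both arrays that no comparison used, AA 2 (4.73) and AA 9 (2.37).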

How the results depend on the processing

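Beside BOLA-N, 1 probe set was called with genotype or the array number range in the model, robust variances, median centring and the left-out arrays in the rest. Its call was lost among AA arrays (0 called) and within numbers 29 to 42, where the 1 call was another, lower probe set. Quantile normalization gave 12 (4 higher, 8 lower, against 1 and 0), array weights 139 (82 and 57), leaving out the third of probe sets with least spread 2, and an adjusted p of 0.10 gave 3. Weights called 1 class I or presentation probe set, PSMB9, and 7 in the other immune lists, PSMB9 again among them since the lists share it. Without 1 high array the calls ran from 1 to 7, and from 0 to 3 in the other immune lists, both highest without AA 8. At an unadjusted p, leaving out 1 high array gave 1 to 9 of 24 higher presentation and 11 to 81 of 238 higher immune probe sets, both lowest without KK 4. The shares of all probe sets beside them were 2.6% to 2.99%. Among AA arrays the counts were 0 of 24 and 20 of 238, beside 1.86%. With the left-out arrays in the rest they were 2 of 24 and 20 of 238, with no share of all probe sets given here to set beside them. Placing the left-out arrays, whose milk genes stood apart, by the threshold gave 8228 calls among 24015 probe sets (4051 higher, 4177 lower). Among the calls were 22 in the class I and presentation lists (27 and 24 probe sets), 119 of 238 immune and 11 of 40 neighbouring probe sets. These counts are to be read against the calls over all probe sets. The placement gave an immune count of 121 of 238 at an unadjusted p, again with no share of all probe sets given here. That placement, the AA arrays alone and the unadjusted p were chosen after seeing the data.

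Of the values of 91 probe sets under the alternatives, 34 of 1265 changed sign, and the cause was not tested. In the order used here, BoLA was 0.29 with the left-out arrays placed by the threshold and -0.83 to 0.80 without 1 high array. FCGRT was -0.044 among AA arrays, and MR1 was -0.030 to 0.057 without 1 high array. DGAT1 was 0.030 with the number block and within the lower numbers, and -0.33 to 0.054 without 1 high array. BTN1A1 was 0.14 with the left-out arrays in the rest. Of the probe sets annotated to BoLA and BOLA, the first was -0.20 with quantile normalization, -0.19 with weights, -0.62 among AA arrays and -0.36 to 0.86 without 1 high array. The next was 0.071 with the left-out arrays in the rest and -0.15 to 0.023 without 1 high array. The last was 0.013 with quantile normalization, 0.11 with the left-out arrays in the rest, 0.031 with weights, 0.0073 with centring and -0.12 to 0.070 without 1 high array. Of those annotated to BOLA-N, BOLA and BOLA-NC1, the left-out arrays placed by the threshold gave 0.043 and -0.17 in 2. In another the number block and the lower numbers gave 0.00052, and leaving out 1 high array -0.11 to 0.061. In a further one quantile normalization gave 0.037, weights 0.048, centring 0.013, the left-out arrays in the rest 0.018, AA arrays 0.080 and leaving out 1 high array -0.092 to 0.059.

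No paired analysis was possible because the labels give the cows no shared replicate numbers. Signal over background is unknown, and the number of high arrays limits the precision.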
